A study of Mus musculus with 8 samples.

Results

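The Hox genes are homeobox transcription factors that lie in 4 clusters, Hoxa, Hoxb, Hoxc and Hoxd, and each gene carries the number of its paralog group, 1 to 13, which follows its place along the cluster. The members described here are all genes of the deposited tables whose symbol is Hoxa, Hoxb, Hoxc or Hoxd followed by a number, together with 2700086A05Rik, an antisense RNA of the Hoxa cluster. That rule found 39 Hox genes, namely 11 Hoxa, 10 Hoxb, 9 Hoxc and 9 Hoxd genes, and with the antisense RNA 40 members out of 26608 gene symbols, of which 18121 had at least 1 read. Transcripts were counted by SAGE in tissue cut by laser from cryosections of FVB mouse embryos at gestation day 8.5. The libraries comprised 1 protrusion labelled as separated (protrusion 1), 3 protrusions labelled as attached (protrusions 2, 3 and 4) and 4 open neural tubes of normal shape, taken just anterior to closure site 1 (open neural tubes 9, 10, 13 and 14). Dams of both groups were diabetic, so maternal diabetes was common to all 8 libraries, and no library of tissue from an embryo of a non-diabetic dam was analysed here. The study set teratogenic protrusions of the open neural plate against open neural plate anterior to closure site 1. The labels give the axial level of the open neural tubes but not of the protrusions, so axial level and protrusion cannot be told apart in any comparison below.

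In the mouse, Hox genes of a cluster are switched on one after another, the low paralog groups first and anteriorly, the high groups later and further posteriorly. Paralog groups 1 to 5 pattern the hindbrain, pharyngeal arches and neck, groups 6 to 9 the trunk, and groups 10 to 13 the lumbar, sacral and tail regions. Transcription starts in the primitive streak and is driven there by Wnt, Fgf and the caudal factors Cdx1, Cdx2 and Cdx4, and retinoic acid acts on the low groups in the hindbrain.

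SAGE reads 1 short tag that starts at a CATG site near the 3′ end of a transcript, so a gene's level does not grow with transcript length, and a transcript without such a site is not seen. All 40 members had a transcript in the GENCODE mouse M21 set, 39 had at least 1 CATG site, and 37 had a full tag of 25 bases at the last site. Hoxc12 had no site. No member's tag was found in another gene on the same strand, and 5 members' tags lay in another gene on the opposite strand. These were Hoxa4, Hoxa7, Hoxb2, Hoxb3 and 2700086A05Rik, of which Hoxa7 and 2700086A05Rik overlap each other. No source used here says whether strand was used in counting, so the levels of those 5 are uncertain to the extent that reads of a partner could have been counted with them. The predicted tags of 7 members described below are shown because the assay reads this part of a transcript. Each was taken from the last CATG site of the longest GENCODE transcript, and the other transcripts of Hoxa7, Hoxb8 and 2700086A05Rik do not share it. The tags that the authors assigned to each gene are unknown here. The CATG site is in capitals, 5′ to 3′ on the transcript:
2700086A05Rik: CATGgctgaacagtaggacacaaaa
Hoxa7: CATGtcccgtcccaccccccagcct
Hoxb1: CATGtcttttgcactaatgcagccc
Hoxb8: CATGcgcgctgtgagcattgttaaa
Hoxb9: CATGcatacgcttctggcaaacagt
Hoxc4: CATGgtacctgctgggtttttgttg
Hoxc8: CATGaaaataatatactgataataa
Hoxa7 and 2700086A05Rik end in different tags although they overlap, and each of the other 5 tags was found in no other gene on either strand.

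Library totals ran from 5668054 to 16655583 reads, and the floor of 3 reads stood for 0.180 to 0.529 CPM, the unit in which a gene's reads are scaled to the total of their library. Floors and intervals cover counting error only. Low-level genes were at 0 more often in the open neural tubes. For 3280 genes that averaged between 5 and 20 CPM over the series, the share without a read was 0.0915 to 0.549% in each protrusion and 4.85 to 18.8% in each open neural tube. A gene silent in 1 group counts among these, and the part of this gap in the zeros of Hox genes was not tested. Nothing in the labels ties each library to an embryo of its own, and protrusions 1 and 2 have titles with a common stem. The p-values therefore reflect library-to-library spread, part of which may be technical. The label of neural tube was checked against 9 neural plate markers, which did not go one way. Sox2, the neural plate factor, had 158 to 583 CPM in the protrusions and 287 to 550 CPM in open neural tubes 9, 10 and 14, but open neural tube 13 had 30.9 CPM. Sox1, another neural plate factor, had 108 CPM in the separated protrusion and 4.01 to 6.85 CPM in the attached ones, against 78.0 to 99.6 CPM in open neural tubes 9, 10 and 14 and 15.3 CPM in open neural tube 13. With the attached protrusions alone, edgeR called Sox1 and Dbx1 lower (log2 fold change -3.78 ± 0.65 and -8.59 ± 1.67 SE, adjusted p 0.0350 and 0.0476), whereas Pax6 and Pax3 missed the threshold at -3.69 and -3.85, and Sox3 at 4.43. In that fit 0.741% of all genes tested were called lower. Dbx1 passed the low-count filter there through the open neural tubes alone. Open neural tube 13 also had 246 CPM of Pax1, a marker of the ventral somite, and 891 CPM of the embryonic globin Hba-x. Without it, fitted values of several members moved by more than 1.5 times, and these are given beside each member.

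Summed over the 39 genes, Hox transcripts stood at 1295 CPM in the separated protrusion and 1876, 1811 and 2477 CPM in the attached ones, against 635, 684, 826 and 547 CPM in open neural tubes 9, 10, 13 and 14. All protrusions lay above all open neural tubes, with means of 1865 ± 484 CPM in the protrusions and 673 ± 117 CPM in the open neural tubes (SD, n = 4 each), a 2.77-fold difference. In bulk tissue, more cells of a type and more RNA per cell cannot be told apart. The 4 clusters did not share this difference equally. The Hoxb sum differed most in CPM, with 880 ± 567 CPM in the protrusions and 141 ± 97.6 CPM in the open neural tubes, 6.25-fold, and no overlap between the groups. Hoxc had 206 ± 219 CPM in the protrusions and 7.51 ± 6.36 CPM in the open neural tubes, but its ranges overlapped, because protrusion 3 with 14.7 CPM lay below open neural tube 13 with 16.03 CPM. That library alone made the overlap, and without it the log2 ratio of the means was 5.46 for Hoxc, against 4.78 with it, and 3.23 for Hoxb, against 2.64. Hoxa overlapped as well, with 764 ± 420 CPM in the protrusions and 492 ± 71.2 CPM in the open neural tubes. Hoxd ran the other way in its means, with 14.9 ± 7.29 CPM in the protrusions and 33.2 ± 24.7 CPM in the open neural tubes, and overlapped. The low groups 1 to 5 summed to 1265 ± 305 CPM in the protrusions and 669 ± 117 CPM in the open neural tubes, a 1.89-fold difference. The high groups 6 to 13 summed to 600 ± 527 CPM in the protrusions and 4.35 ± 2.80 CPM in the open neural tubes. Neither class overlapped between the groups.

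**Figure D1:**
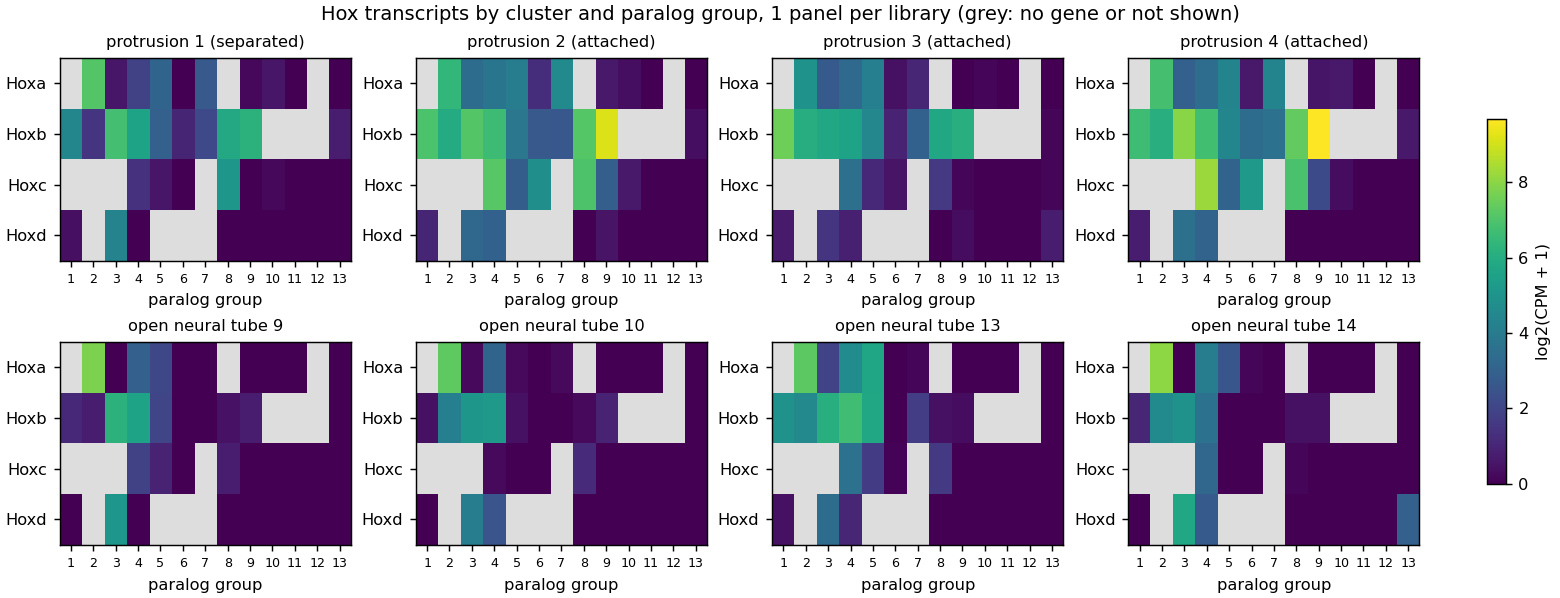
Level of Hox genes as log2(CPM + 1), colour, by cluster (rows) and paralog group (columns), 1 panel for each of the 4 protrusions (upper row) and 4 open neural tubes (lower row), with grey where the mouse has no gene or none is shown. In the protrusions the coloured cells reach Hoxb9 at 66.7 to 819 CPM, and in the open neural tubes the cells of groups 6 to 9 stay at or below 2.40 CPM.

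The make-up of the Hox transcripts differed between libraries of each group. Groups 6 to 13 made up 13.5% of all Hox reads in the separated protrusion, and 48.3, 7.40 and 47.8% in attached protrusions 2, 3 and 4. In open neural tubes 9, 10, 13 and 14 they made up 0.280, 0.361, 0.639 and 1.44%. The share in open neural tube 14 came from Hoxd13, a gene of the tail and digits. Without groups 10 to 13 it was 0.174% there (95% Wilson interval 0.0884 to 0.344%). Protrusions 2 and 4 thus had about as many reads of the trunk groups as of the anterior groups, while in protrusions 1 and 3 most Hox reads came from groups 1 to 5. Hoxb9 was the most abundant Hox gene in protrusions 2 and 4, whereas no gene of groups 6 to 13 was so in an open neural tube. Taken along the Hoxb cluster, the highest paralog group at 5 CPM or more was 9 in all 4 protrusions, against 4, 4, 5 and 4 in open neural tubes 9, 10, 13 and 14. Along Hoxa it was 7, 7, 5 and 7 in protrusions 1, 2, 3 and 4, against 4, 4, 5 and 5 in those open neural tubes. Along Hoxc it was 8, 9, 4 and 8 in protrusions 1, 2, 3 and 4, against 4 in open neural tubes 13 and 14 and no gene at that level in open neural tubes 9 and 10.

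**Figure D2:**
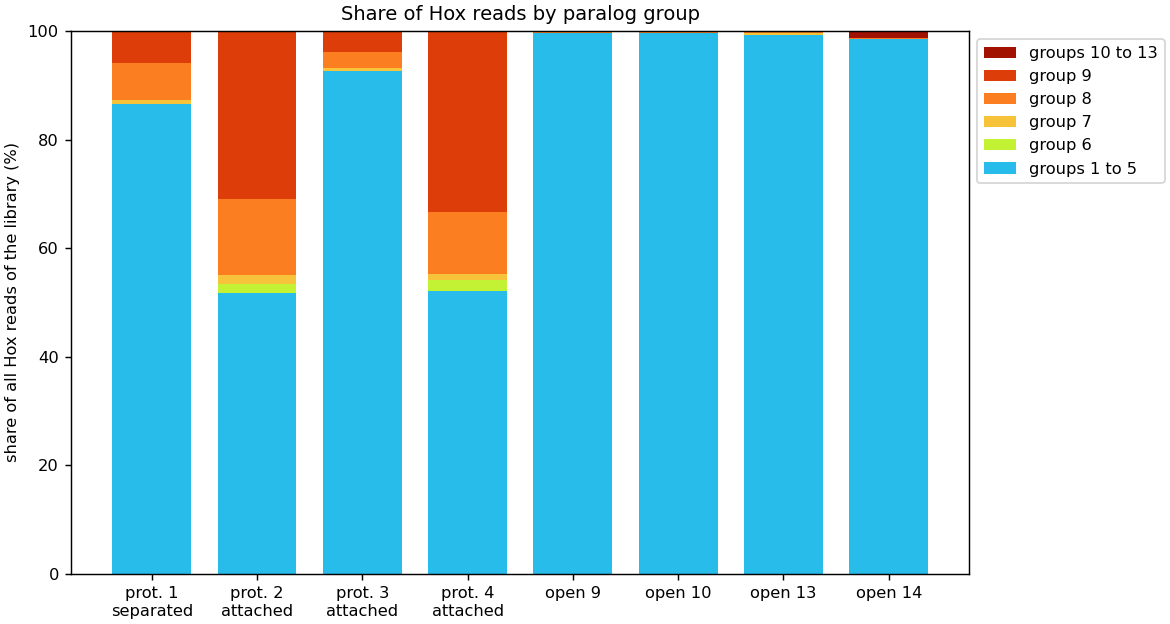
Share of all Hox reads of a library (y axis, percent) taken by groups 1 to 5 together, by each of groups 6 to 9 and by groups 10 to 13 (colours), 1 bar for each of 4 protrusions (left) and 4 open neural tubes (right). Groups 6 to 13 take 7.40 to 48.3% in the protrusions and 0.280 to 1.44% in the open neural tubes.

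Of the 40 members, 18 had enough reads to be tested, 17 Hox genes and the antisense RNA. Hoxb8, Hoxb9 and 2700086A05Rik rose in protrusions by edgeR's quasi-likelihood test at a Benjamini-Hochberg adjusted p of 0.05 over the 11036 genes tested, and no member fell. Among all genes tested, 0.281% were called higher and 0.326% lower. Hoxb8 and Hoxb9 passed the low-count filter through the protrusions alone, so a difference was a condition of their being tested. 2700086A05Rik, Hoxa3, Hoxb7 and Hoxc8 had fewer than 10 reads in every open neural tube but 13, so they also needed their protrusion values to pass. Hoxa5, Hoxb1, Hoxb2, Hoxb5, Hoxc4 and Hoxd4 could not have passed on open neural tube values alone either. The shares below are thus of members chosen in part for being high in the protrusions. Without adjustment, 9 of the 18 tested members had a p under 0.05, against 15.3% of all genes tested. Fitted values were above 0 for 13 of the 18 members, against 53.7% of all genes, and their median fitted value was 1.42 on the log2 scale, against 0.08 for all genes. Of the 15 genes of groups 1 to 5, 13 were tested, 0 were called in either direction by edgeR, DESeq2 or limma-voom, 5 had an unadjusted p under 0.05, and the median was 0.51. Of the 24 genes of groups 6 to 13, only 4 were tested. Of the 40 members, 8 had no read in any library. A further 8 were higher in every protrusion than in any open neural tube, against 10% of all 18121 genes with a read, and 1 was lower, against 2.79%. Of the 8 higher ones, Hoxa10 and Hoxb13 had only 1 read each in protrusion 3, under the floor of 3 reads.

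**Figure D3:**
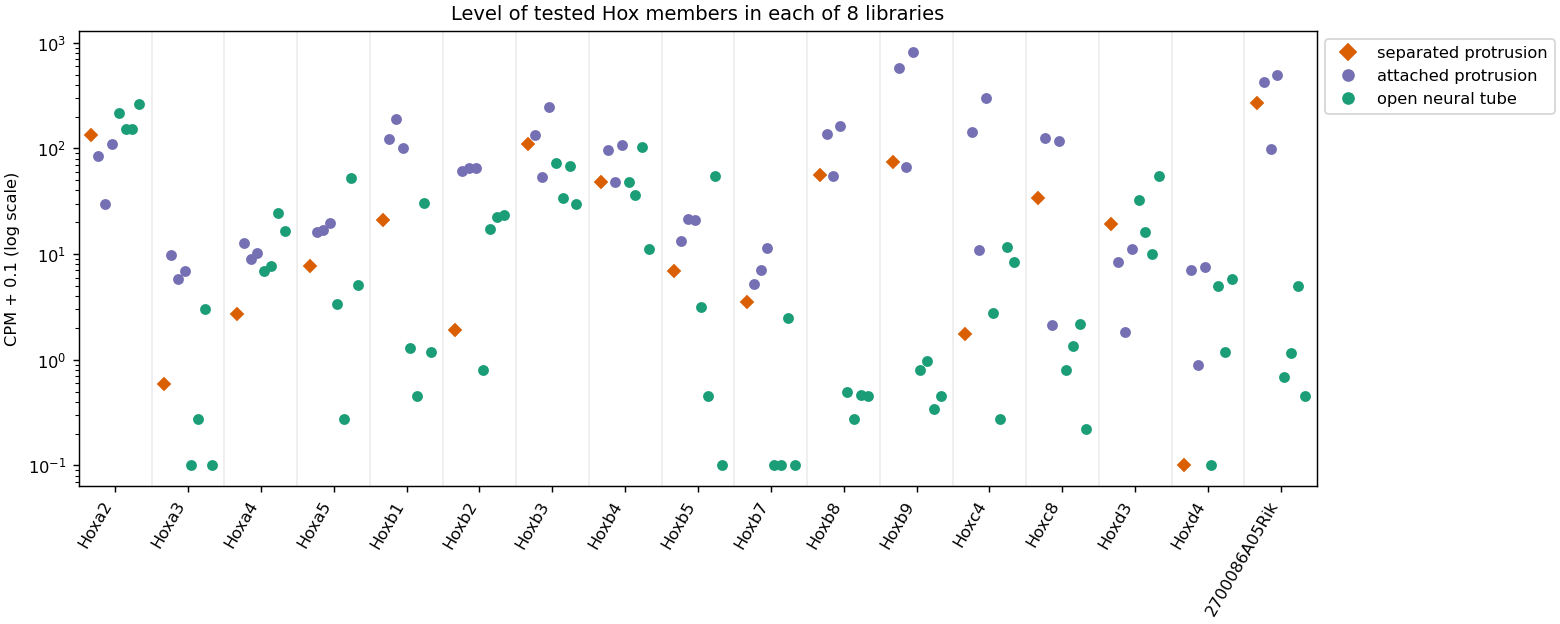
Level of tested members in each library (y axis, CPM + 0.1, log scale), with the separated protrusion (diamond), 3 attached protrusions and 4 open neural tubes from left to right within each gene. The groups stand furthest apart for Hoxb8, Hoxb9 and 2700086A05Rik, whose open neural tube values reach at most 4.86 CPM.

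Paralog group 9 held the largest fitted change of the family. Hoxb9, which with its paralogs patterns the thoracic skeleton, had 74.1 CPM in the separated protrusion and 572, 66.7 and 819 CPM in attached protrusions 2, 3 and 4, against 0.691, 0.882, 0.240 and 0.358 CPM in open neural tubes 9, 10, 13 and 14. Protrusions 2 and 4 were high, protrusions 1 and 3 intermediate, and the open neural tubes, with 19 reads in all, near the floor of 3 reads. Its log2 fold change was 9.50 ± 1.12 (SE), with an edgeR adjusted p of 0.0111, higher in 4 of 4 protrusions. The call was lost when open neural tube 9, 10 or 14 was left out, with edgeR adjusted p of 0.057, 0.060 and 0.079, and with limma-voom, at 0.290. Hoxc9, known from mouse to limit brachial motor neuron fate, had 0 CPM in the separated protrusion, 6.60, 0.0875 and 3.49 CPM in attached protrusions 2, 3 and 4, and 0 CPM in every open neural tube. Against the mean floor of the open neural tubes, taken at 3 reads per library, its mean over protrusions was at least 7.46-fold higher. Hoxa9 and Hoxd9 did not exceed 0.574 CPM in any library.

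Paralog group 8 was split. Hoxb8, a trunk gene of spinal cord and skeleton, had 55.6 CPM in the separated protrusion and 138, 54.2 and 164 CPM in attached protrusions 2, 3 and 4, against 0.395, 0.176, 0.360 and 0.358 CPM in open neural tubes 9, 10, 13 and 14. Every protrusion lay far above every open neural tube, which held 14 reads in all. The log2 fold change was 8.13 ± 0.60 (SE, edgeR adjusted p 0.000809), and the adjusted p stayed between 1.61e-34 and 0.0326 over 15 other settings. Hoxc8, which specifies brachial motor pools, had 33.7 CPM in the separated protrusion and 125, 2.01 and 119 CPM in attached protrusions 2, 3 and 4, against 0.691, 1.23, 2.10 and 0.119 CPM in open neural tubes 9, 10, 13 and 14. Attached protrusion 3 was the low one and lay at the level of open neural tube 13. Hoxc8 missed the threshold, with a log2 fold change of 5.96 ± 1.22 (SE, edgeR adjusted p 0.0589). Without protrusion 3 it passed, with an adjusted p of 0.0177, as it did with DESeq2, with an adjusted p of 1.36e-07. In the other 12 settings it did not pass, with adjusted p of 0.0504 to 0.501, the highest with limma-voom. Without open neural tube 13 its log2 fold change was 6.71. Hoxd8 had no read in any library. Its only CATG site lies 2170 bases from the 3′ end of its transcript.

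The antisense RNA 2700086A05Rik, which runs opposite to Hoxa7 and is named Hoxaas3 in GENCODE, had 268 CPM in the separated protrusion and 424, 99.7 and 493 CPM in attached protrusions 2, 3 and 4, against 0.592, 1.06, 4.86 and 0.358 CPM in open neural tubes 9, 10, 13 and 14. The groups did not overlap, and protrusion 3 was the lowest of the 4 protrusions. Its log2 fold change was 7.33 ± 0.90 (SE, edgeR adjusted p 0.0111). The call was lost without protrusion 4, at an edgeR adjusted p of 0.052, without open neural tube 9, 10 or 14, at 0.057, 0.060 and 0.077, and with limma-voom, at 0.110. Without open neural tube 13 the log2 fold change was 8.92, with an adjusted p of 0.00683. Hoxa7, the trunk gene on the other strand, was much lower and too sparse to be tested, with 5.56 CPM in the separated protrusion, 1.05 to 23.9 CPM in the attached ones and 0 to 0.176 CPM in the open neural tubes. With 377 reads in all protrusions and 3 in all open neural tubes, its pooled ratio was 156, with a 95% counting interval of 53.1 to 761.

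The other gene of paralog group 7 and those of group 6 reached at most 36.4 CPM. Hoxb7 had 3.44 CPM in the separated protrusion and 5.16, 7.00 and 11.4 CPM in attached protrusions 2, 3 and 4, against 0, 0, 2.40 and 0 CPM in open neural tubes 9, 10, 13 and 14. The groups did not overlap, but the fit gave a log2 fold change of 3.28 ± 1.72 (SE) with an edgeR adjusted p of 0.411, and limma-voom one of 0.0489. All 40 of its open neural tube reads came from library 13, and without that library the log2 fold change was 8.77, with an edgeR adjusted p of 0.0531. Hoxb6 had 0.982 CPM in the separated protrusion, 0.962 to 9.74 CPM in the attached ones and 0 in every open neural tube, its mean over protrusions being at least 12.6-fold higher than the same floor. Hoxc6, a gene of the brachial spinal cord and upper thorax, had 0 CPM in the separated protrusion, 27.1, 0.437 and 36.4 CPM in attached protrusions 2, 3 and 4, and 0 to 0.0600 CPM in the open neural tubes. Its 497 reads in protrusions all came from the attached ones, and 1 read was counted in the open neural tubes, a pooled ratio of 618 with a 95% counting interval of 110 to 24455. Hoxa6 stayed at or below 1.43 CPM, with 19 reads in protrusions and 1 in open neural tubes, a ratio of 23.6 (3.76 to 982). Protrusions 2 and 4 had the 2 highest values of Hoxa6, Hoxa7, Hoxb6 and Hoxc6, as they had of Hoxb8, Hoxb9, Hoxc8 and 2700086A05Rik, whereas Hoxb7 was higher in protrusion 3 than in protrusion 2.

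The lower Hoxc genes showed the same 2 libraries high. Hoxc4, of the posterior hindbrain and neck, had 1.64 CPM in the separated protrusion and 142, 10.9 and 300 CPM in attached protrusions 2, 3 and 4, against 2.67, 0.176, 11.6 and 8.24 CPM in open neural tubes 9, 10, 13 and 14. Protrusions 2 and 4 lay above all open neural tubes and the other 2 protrusions within their range. The log2 fold change was 4.22 ± 1.43 (SE, edgeR adjusted p 0.181), or 4.89 without open neural tube 13. Hoxc5 had 0.491 CPM in the separated protrusion, 1.14 to 7.57 CPM in the attached ones and 0 to 2.28 CPM in the open neural tubes, and passed the low-count filter only when the separated protrusion was left out. The spread of Hoxc genes among protrusions was wide, so that a Hoxc sum of 466 CPM in protrusion 4 stood beside one of 14.7 CPM in protrusion 3.

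Promoter sequence is shown for 3 members as a description of sequence only. These 3 windows were picked, each holds a match to a motif, and many other Hox windows hold none. No relation between a match and a level was tested. The windows run from 250 bases before to 50 bases after the annotated start and come from RefSeq, build GRCm38.p6, read 5′ to 3′ on the strand of the gene. That build is not the one of the files. The letters TTTATG, the core bound by caudal factors, and TGATNNAT, bound by PBX with HOX proteins, were searched on both strands and are in capitals, and the 2 motifs do not overlap in these windows. TTTATG was found in 11.9% of 32851 promoters of the table and in 5 of 24 promoters of 22 Hox genes, those of Hoxa7, Hoxb8, Hoxd3, Hoxd4 and Hoxd11. TGATNNAT was found in 8.85% of all promoters and in 4 of those 24, of Hoxa2, Hoxb1, Hoxb8 and Hoxd11. The other Hox genes, Hoxb9 and Hoxc8 among them, and 2700086A05Rik had no window there and were not searched. The Hoxb8 window, at chr11:96281655-96281954 on the plus strand, holds TTTATG once in each direction and TGATNNAT once, in reverse. The Hoxa7 window, at chr6:52218524-52218823 on the minus strand, holds TTTATG at 2 places. The Hoxb1 window, at chr11:96365508-96365807 on the plus strand, holds TGATNNAT once. Hoxb1 is known in the mouse to act on its own promoter together with Pbx. A match describes the letters of the window and is not a measured binding site:
Hoxb8: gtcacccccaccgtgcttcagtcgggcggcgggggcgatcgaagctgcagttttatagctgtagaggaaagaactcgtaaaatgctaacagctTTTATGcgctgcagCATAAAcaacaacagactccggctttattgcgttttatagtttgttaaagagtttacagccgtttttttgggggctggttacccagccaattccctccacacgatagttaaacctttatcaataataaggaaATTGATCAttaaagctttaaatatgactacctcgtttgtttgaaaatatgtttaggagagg
Hoxa7: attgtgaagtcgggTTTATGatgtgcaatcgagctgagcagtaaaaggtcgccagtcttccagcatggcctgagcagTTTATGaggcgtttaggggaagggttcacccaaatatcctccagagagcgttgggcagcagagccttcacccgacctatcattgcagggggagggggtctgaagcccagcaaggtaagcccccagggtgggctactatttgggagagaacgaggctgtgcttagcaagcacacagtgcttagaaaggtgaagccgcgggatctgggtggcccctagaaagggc
Hoxb1: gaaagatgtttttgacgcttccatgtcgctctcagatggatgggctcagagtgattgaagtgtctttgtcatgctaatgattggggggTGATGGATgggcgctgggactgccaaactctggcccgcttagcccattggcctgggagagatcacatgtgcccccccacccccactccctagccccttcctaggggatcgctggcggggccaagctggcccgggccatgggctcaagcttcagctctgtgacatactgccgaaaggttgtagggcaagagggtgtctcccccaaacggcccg
Of the other genes with TTTATG, Hoxd11 had no read in any library, and neither Hoxd3 nor Hoxd4 was called by edgeR.

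Paralog group 1 is the first to be switched on. Hoxb1, which gives rhombomere 4 its identity, had 20.8 CPM in the separated protrusion and 122, 188 and 100 CPM in attached protrusions 2, 3 and 4, against 1.18, 0.353, 30.1 and 1.07 CPM in open neural tubes 9, 10, 13 and 14. The attached protrusions lay above all open neural tubes, and the separated one between open neural tube 13 and the other three. Its log2 fold change was 3.53 ± 1.23 (SE, edgeR adjusted p 0.193). Without open neural tube 13 it was 6.78, with an adjusted p of 0.0285, so that 1 library decided this call. Hoxd1 stayed at or below 1.00 CPM in every library.

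Paralog group 2 held the only member that was lower in every protrusion. Hoxa2, which patterns rhombomere 2 and the second pharyngeal arch, had 134 CPM in the separated protrusion and 84.9, 29.9 and 111 CPM in attached protrusions 2, 3 and 4, against 218, 153, 152 and 263 CPM in open neural tubes 9, 10, 13 and 14. The ranges did not overlap, but the log2 fold change of -1.20 ± 0.42 (SE) missed the threshold, with an edgeR adjusted p of 0.201 and a range of 0.0658 to 0.427 over the other settings. Hoxb2, needed for facial motor neurons, had 1.80 CPM in the separated protrusion and 60.8, 65.0 and 65.4 CPM in attached protrusions 2, 3 and 4, against 0.691, 17.3, 22.5 and 23.3 CPM in open neural tubes 9, 10, 13 and 14. The 3 attached protrusions were close to each other and above every open neural tube, and the separated one was near the lowest open neural tube. Over all 4 protrusions the log2 fold change was 1.503 ± 1.01 (SE, edgeR adjusted p 0.543). The group as a whole took 5.24 to 10.5% of Hox reads in the protrusions and 21.1 to 52.2% in the open neural tubes.

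In paralog group 3 the clusters differed in direction, and no gene passed the test. Hoxb3, active in the posterior hindbrain, had 110 CPM in the separated protrusion and 135, 53.2 and 246 CPM in attached protrusions 2, 3 and 4, against 72.8, 33.5, 68.2 and 29.8 CPM in open neural tubes 9, 10, 13 and 14. The ranges overlapped through protrusion 3, and the log2 fold change was 1.33 ± 0.49 (SE, edgeR adjusted p 0.216). Hoxa3, needed for the thymus and parathyroid, had 0.491 CPM in the separated protrusion and 9.75, 5.69 and 6.85 CPM in attached protrusions 2, 3 and 4, against 0, 0.176, 2.94 and 0 CPM in open neural tubes 9, 10, 13 and 14. Only the attached protrusions stood above all open neural tubes, and the log2 fold change over all 4 was 2.70 ± 1.72 (SE, edgeR adjusted p 0.520). Of its 50 open neural tube reads 49 came from library 13, without which the log2 fold change was 6.48, with an edgeR adjusted p of 0.0741. Hoxd3, which shapes the first neck vertebrae, had 19.1 CPM in the separated protrusion and 8.32, 1.75 and 11.1 CPM in attached protrusions 2, 3 and 4, against 32.7, 16.1, 9.85 and 55.3 CPM in open neural tubes 9, 10, 13 and 14. Its mean was lower in the protrusions, the ranges overlapped, and the log2 fold change was -1.57 ± 0.75 (SE, edgeR adjusted p 0.359).

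In paralog groups 4 and 5 the levels of the groups overlapped for every gene, Hoxc4 and Hoxc5 included. Hoxb4, of the posterior hindbrain, had 48.1 CPM in the separated protrusion and 97.4, 48.1 and 107 CPM in attached protrusions 2, 3 and 4, against 47.6, 35.8, 104 and 11.1 CPM in open neural tubes 9, 10, 13 and 14, a log2 fold change of 0.51 ± 0.58 (SE), or 1.21 without open neural tube 13. Hoxa4 had 2.62 CPM in the separated protrusion and 12.6, 8.92 and 10.1 CPM in attached protrusions 2, 3 and 4, against 6.81, 7.59, 24.2 and 16.4 CPM in open neural tubes 9, 10, 13 and 14, a log2 fold change of -0.78 ± 0.68 (SE). Hoxd4 had 0 CPM in the separated protrusion and 7.03, 0.787 and 7.45 CPM in attached protrusions 2, 3 and 4, against 0, 4.94, 1.08 and 5.73 CPM in open neural tubes 9, 10, 13 and 14, a log2 fold change of 0.36 ± 1.67 (SE). These 3 neck genes had edgeR adjusted p of 0.761, 0.667 and 0.956. Without open neural tube 13 the log2 fold change was -0.30 for Hoxa4 and 0.12 for Hoxd4. Hoxa5, which acts in the lung and at the neck to thorax transition, had 7.69 CPM in the separated protrusion and 16.1, 17.0 and 19.5 CPM in attached protrusions 2, 3 and 4, against 3.26, 0.176, 52.7 and 5.01 CPM in open neural tubes 9, 10, 13 and 14. Hoxb5, of the same level, had 6.87 CPM in the separated protrusion and 13.2, 21.3 and 20.8 CPM in attached protrusions 2, 3 and 4, against 3.06, 0.353, 54.8 and 0 CPM in open neural tubes 9, 10, 13 and 14. For both, open neural tube 13 was the highest of all 8 libraries and the other 3 open neural tubes were below every protrusion. The log2 fold changes were -0.15 ± 1.14 for Hoxa5 and -0.05 ± 1.43 for Hoxb5 (SE, edgeR adjusted p 0.973 and 0.993). Without open neural tube 13 they were 2.33 and 3.61, with the direction reversed, and missed the threshold.

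Groups 10 to 13 were hardly detected. Of their 12 genes 7 had no read in any of the 8 libraries, namely Hoxa11, Hoxa13, Hoxc11, Hoxc12, Hoxd10, Hoxd11 and Hoxd12. All but Hoxc12 have a CATG site. Hnrnpa1 and Atp5g2, widely expressed genes beside the clusters, were also at 0 in all 8 libraries, a pair singled out after their values were seen, so a gene at 0 in every library is not shown to be silent. Hoxa10 had 0.0875 to 0.601 CPM and Hoxb13 0.0875 to 0.654 CPM in the protrusions, near the floor of 3 reads, and neither had a read in the open neural tubes. Hoxc10 did not exceed 0.574 CPM, and Hoxc13 had 1 read in all. Hoxd13 was the exception, with 0 CPM in the separated protrusion, 0 to 0.700 CPM in the attached ones and 0, 0, 0 and 6.92 CPM in open neural tubes 9, 10, 13 and 14. All 58 of its open neural tube reads came from library 14, and no other gene of groups 10 to 13 had a read there. Of the 39 Hox genes, 16 had no read in any open neural tube. Of the 31 Hox genes with a read, 8 had reads in protrusions only. This is close to the share of 26.1% among all 18121 genes with a read. A total of 16 Hox genes never reached 5 CPM, the highest of them being Hoxa6 at 1.43 CPM.

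Set against the open neural tubes without the separated protrusion, the 3 attached protrusions gave the same 3 calls, Hoxb8, Hoxb9 and 2700086A05Rik, of 19 members tested. Here 0.759% of 11466 genes tested were called higher by edgeR and 0.741% lower. The fitted log2 fold changes were 8.34 ± 0.57 for Hoxb8, 9.86 ± 0.98 for Hoxb9 and 7.41 ± 0.97 for 2700086A05Rik (SE, edgeR adjusted p 0.000775, 0.00642 and 0.0163). Hoxc8 and Hoxc4 came nearest to the threshold, with log2 fold changes of 6.20 ± 1.29 and 4.63 ± 1.20 (SE, edgeR adjusted p 0.0556 and 0.0816). Without attached protrusion 3 as well, 5 members were called, Hoxc6 and Hoxc8 being added, and without open neural tube 9 only 1. For Hoxa3, Hoxa6, Hoxb1, Hoxb2, Hoxc6, Hoxc9 and Hoxd1 all attached protrusions lay above all open neural tubes while the separated one did not. Some of these rested on few reads. In attached protrusion 3 Hoxc9 had 1 read, Hoxa6 had 4 and Hoxc6 had 5. Hoxd1 had 6 or 7 reads in each attached protrusion and 6 in open neural tube 13. Of these 7 genes, Hoxb2 had a log2 fold change of 1.91 ± 0.81 and Hoxb1 one of 3.87 ± 1.26 (SE, edgeR adjusted p 0.261 and 0.134). Hoxa2 remained lower without overlap, at -1.45 ± 0.46 (SE, edgeR adjusted p 0.123). In this comparison 17.8% of all genes with a read were higher without overlap and 4.41% lower. The 2 comparisons share their open neural tubes and attached protrusions, so they are not independent.

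**Figure D4:**
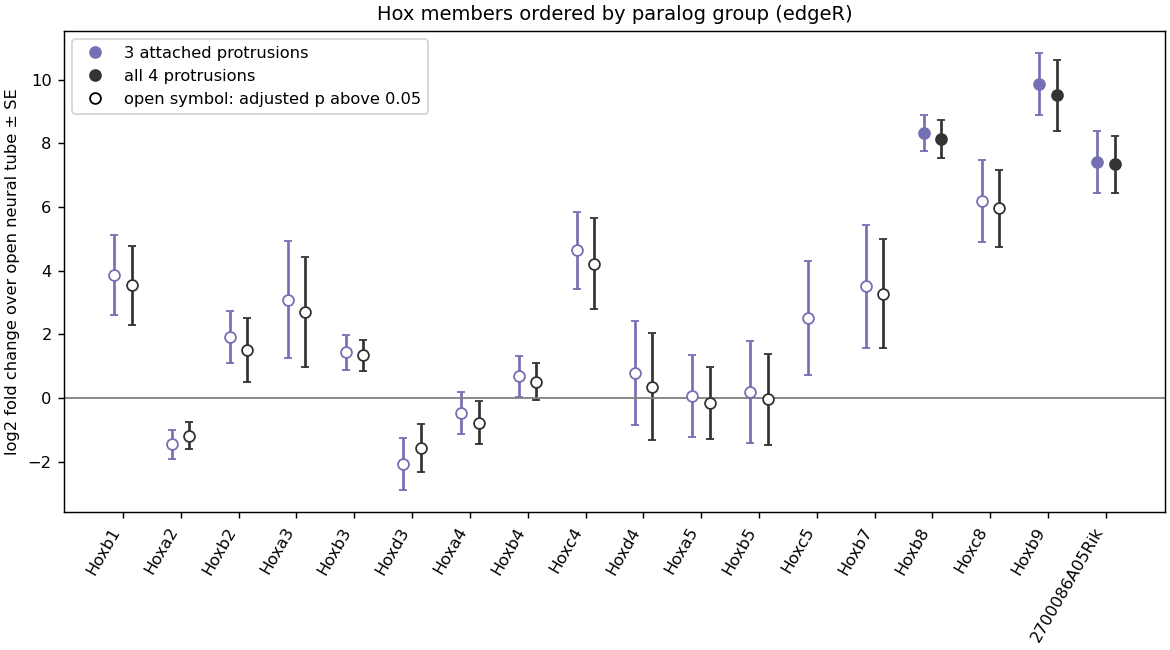
Fitted log2 fold change over open neural tube (y axis) with its SE (bars) for tested members, in order of paralog group, for the 3 attached protrusions (left symbol) and all 4 protrusions (right symbol), filled where the edgeR adjusted p is under 0.05. Hoxb8, Hoxb9 and 2700086A05Rik are filled in both fits, and groups 1 to 5 hold no filled symbol.

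The separated protrusion is 1 library, so its differences from the attached ones carry no test. Of the 18 tested members it lay below all 3 attached protrusions for 10 and above them for 2, against 34.3 and 28.1% of all 11036 genes tested. The 2 above were Hoxa2, at 134 CPM against 29.9 to 111 CPM in the attached, and Hoxd3, at 19.1 CPM against 1.75 to 11.1 CPM. The 10 below were Hoxa3, Hoxa4, Hoxa5, Hoxb1, Hoxb2, Hoxb4, Hoxb5, Hoxb7, Hoxc4 and Hoxd4, so that all 4 tested genes of group 4 and both of group 5 were among them. Hoxb4 lay only marginally below, at 48.10 CPM against 48.12 CPM in attached protrusion 3. The largest gaps on the log2(CPM + 1) scale from the attached mean were -4.93 for Hoxc4 and -4.53 for Hoxb2. Hoxb8, Hoxb9, Hoxc8 and 2700086A05Rik lay within the attached range, Hoxb8 and Hoxb9 close to attached protrusion 3. The separated protrusion also differed in other markers, with a summed level of 39.1 CPM of 5 primitive streak markers against 416 to 800 CPM in the attached ones, and their part in these values was not tested.

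Over the 31 Hox genes with a read, as log2(CPM + 1), the closest pair of libraries was protrusions 2 and 4, with a Pearson r of 0.989. Protrusion 3 had an r of 0.816 with protrusion 2 and 0.809 with protrusion 4, and the separated protrusion had 0.800 to 0.826 with the attached ones. Between protrusions and open neural tubes r ran from 0.449 to 0.789, and among open neural tubes from 0.768 to 0.908. Over all 11036 genes tested, r was 0.777 to 0.921 between protrusions and open neural tubes and 0.796 to 0.865 among open neural tubes. There the separated protrusion was closest to open neural tube 9, at 0.921, against 0.876 to 0.915 with the attached protrusions. These values are across genes, which are not independent replicates, and every pair shares the genes that are low in all libraries.

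Genes that act on Hox onset and boundaries were taken as a list of 15, of which 10 were tested. EdgeR called 2 higher and 0 lower, against 0.281 and 0.326% of all genes tested. Their median log2 fold change was 2.70, against 0.08 over all genes tested. Cdx2, T, Wnt3a and Cyp26a1, among others, could not have passed the low-count filter on open neural tube values alone. The count and the median are thus of genes chosen in part for being high in the protrusions. Both called genes were caudal factors. Cdx2 had 105 CPM in the separated protrusion and 207, 320 and 211 CPM in attached protrusions 2, 3 and 4, against 0.987, 1.94, 4.32 and 0.597 CPM in open neural tubes 9, 10, 13 and 14 (log2 fold change 6.56 ± 0.64 SE, edgeR adjusted p 0.00582). Cdx1 had 138 CPM in the separated protrusion and 211, 91.9 and 173 CPM in attached protrusions 2, 3 and 4, against 2.27, 21.5, 9.19 and 3.34 CPM in open neural tubes 9, 10, 13 and 14 (4.06 ± 0.67 SE, edgeR adjusted p 0.0390). Neither overlapped between the groups. The number of regulators called higher was 4 without the separated protrusion, 0 without open neural tube 9 and 1 without any one of open neural tubes 13 and 14 and protrusions 2, 3 and 4. T, a transcription factor of the primitive streak and one of the next 2 by p, had 36.8 CPM in the separated protrusion, 379 to 737 CPM in the attached ones and 0.296 to 16.9 CPM in the open neural tubes (6.15 ± 1.32 SE, edgeR adjusted p 0.0698). Rarb, a retinoic acid receptor, had 36.5 CPM in the separated protrusion, 2.01 to 11.3 CPM in the attached ones and 55.5 to 166 CPM in the open neural tubes (-3.03 ± 0.72 SE, edgeR adjusted p 0.0794). With the attached protrusions alone, T and the receptor Rarg were called higher as well, and Rarb lower. Rarg passed the low-count filter there through the protrusions alone.

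The cofactors that bind DNA with Hox proteins, Pbx, Meis and Pknox, were not called in either direction. Of 9 genes 7 were tested, and their median fitted value was -0.96 on the log2 scale. Meis1 had 51.0 CPM in the separated protrusion and 7.89, 13.3 and 29.4 CPM in attached protrusions 2, 3 and 4, against 69.7, 131, 162 and 77.0 CPM in open neural tubes 9, 10, 13 and 14, lower without overlap (-2.19 ± 0.56 SE, edgeR adjusted p 0.0832). EdgeR called 0 of the 7 over all protrusions. Of these 7, 4 had an unadjusted edgeR p under 0.05, all lower, against 15.3% of all genes tested. Limma-voom called 1 and DESeq2 2, all lower, against 389 and 795 genes called in all. Without the separated protrusion Meis1 was called lower, at -2.79 ± 0.53 (SE, edgeR adjusted p 0.0446). Pbx2 had 100 CPM in the separated protrusion, 42.7 to 70.5 CPM in the attached ones and 107 to 174 CPM in the open neural tubes (-0.99 ± 0.28 SE, edgeR adjusted p 0.105). Genes that lie beside the clusters but are no Hox genes, 3 on each side of each cluster, gave no call. Of 24 such genes 23 were in the tables and 15 were tested. EdgeR called 0 of them. An unadjusted edgeR p under 0.05 was found for 2, near the share of 15.3% of all genes tested. Limma-voom called 0 and DESeq2 1, lower, against 389 and 795 genes called in all. Their median fitted value was 0.23 on the log2 scale. The smallest p were those of Atp5g1, beside Hoxb, at -0.80 ± 0.23 (SE, edgeR adjusted p 0.111), and Skap2, beside Hoxa, at 1.88 ± 0.84 (SE, edgeR adjusted p 0.325).

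Of 8 lists of cell type markers, the sum of the primitive streak markers alone did not overlap between the groups. The 5 primitive streak markers T, Mixl1, Nodal, Eomes and Evx1 summed to 39.1 to 800 CPM in the protrusions and 0.296 to 16.9 CPM in the open neural tubes, where Mixl1, Nodal, Eomes and Evx1 were at 0 in all 4. Of the 2 tested, Nodal and T, edgeR called Nodal higher (log2 fold change 10.7 ± 1.63 SE, adjusted p 0.0480). Nodal had 1.31 to 32.8 CPM in the protrusions and passed the low-count filter through them alone. Of all genes tested, edgeR called 0.281% higher. The 7 paraxial mesoderm markers summed to 501 to 978 CPM in the protrusions and 74.5 to 629 CPM in the open neural tubes, with Msgn1 at 0 in all 4. Although these sums overlapped, edgeR called 2 of the 5 tested higher, against the same 0.281% of all genes tested. Tbx6 had 26.5 to 285 CPM in the protrusions and 0.180 to 1.38 CPM in the open neural tubes (adjusted p 0.0111). Dll3 had 6.71 to 369 against 0.592 to 2.03 CPM (adjusted p 0.0265). Neither could have passed the low-count filter on open neural tube values alone. Meox1, Tcf15 and Foxc2 overlapped and were not called. The 9 neural plate markers summed to 218 to 818 CPM in the protrusions and 62.3 to 984 CPM in the open neural tubes, the lowest being open neural tube 13, with Nkx6-1 at 0 in all 8 libraries and Olig2 at 0 in all protrusions. The 5 surface ectoderm markers summed to 140 to 1030 CPM in the protrusions, highest in protrusion 3, and 52.9 to 324 CPM in the open neural tubes. The 5 endothelial markers summed to 0.574 to 34.0 CPM in the protrusions and 6.42 to 163 CPM in the open neural tubes, with Kdr at 0 in all 4. The 4 erythroid markers summed to 0.430 to 45.9 CPM in the protrusions and 1.06 to 1009 CPM in the open neural tubes, with Hbb-y at 0 in all 8 libraries. The 5 endoderm markers summed to 8.18 to 94.8 CPM in the protrusions and 2.96 to 34.9 CPM in the open neural tubes, with Cldn6 at 0 in all 4. The 3 neural crest markers found summed to 0.574 to 4.58 CPM in the protrusions and 0.176 to 12.4 CPM in the open neural tubes, with Foxd3 at 0 in all 4. The part of these cell types in the Hox values was not tested.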

How the data were processed

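Gene expression was measured by SAGE in 4 protrusion and 4 open neural tube libraries made, per the labels' protocols, from 7 to 12 ng of total RNA with a SOLiD SAGE kit. The deposited files hold the authors' whole-number read counts per gene symbol, not normalized. The genome build named is mm9, per the submitters' processing notes, and no source used here gives the mapping program, the rule from tag to gene or whether strand was used. CPM values are counts scaled to the library total. Groups follow the source names and morphology labels, with protrusions numbered 1 to 4 in the order listed, open neural tubes by their titles. The fit was made with edgeR 4.0.16 under R 4.3.3 (filterByExpr with minimum count 10, TMM factors, robust quasi-likelihood F test, 2-sided, Benjamini-Hochberg adjustment over all genes tested, threshold 0.05). SEs were derived from the F statistic. DESeq2 1.42.0 and limma 3.58.1 (voom), other scaling factors and filters, and leaving out each library were alternatives. Sums of clusters and paralog classes, and the separated library against the attached ones, were described without a test. Pooled ratios have exact counting intervals at 95%. Every tested member but 1, not reported here, is named with all its values, every other member that reached 5 CPM with its ranges, and of each other list the called genes and the 2 with the smallest p. The members, lists and tests were chosen with earlier results of these data known. The fitting script was tested on simulated data with 1 dispersion common to all genes. It called 0, 2, 46 and 74% of 50 genes each changed 2-, 4-, 8- and 16-fold, and 2 of its 63 calls were false. A gene that was not called is therefore not shown to be unchanged.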

Additional observations from a re-analysis of the deposited data

Results flagged for a closer look

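In 5 of 36 sets of 4 libraries screened, counting each member in each group, 1 library stood far from the other 3 by Dixon's criterion. Chance meets it in about 1 of 20 independent sets of normally distributed values. CPM are bounded at 0 and the sets share libraries, so that rate need not hold here. Hoxb2 was at 1.80 CPM in protrusion 1, the separated one, against 60.8 to 65.4 CPM in the other protrusions. Open neural tube 13 stood out for Hoxb1, at 30.1 CPM against 0.353 to 1.18 CPM in the other open neural tubes, for Hoxa5, at 52.7 CPM against 0.176 to 5.01 CPM, and for Hoxb5, at 54.8 CPM against 0 to 3.06 CPM. Hoxd13 was at 6.92 CPM in open neural tube 14 and at 0 in the other open neural tubes.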

How the results depend on the processing

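Over 15 other settings, 15 of 18 tested members kept the direction of their fitted change, and of 259 fold changes recomputed for them 234 kept direction and call. The sums of clusters and paralog classes kept their direction and moved by less than 1 SD in every setting run for them. Upper-quartile factors, a filter of 20 CPM in 4 libraries, DESeq2 and limma-voom called 103, 157, 795 and 389 genes in all, against 67, and leaving out 1 library gave 1 to 172. Members called higher ranged from 1 to 4 with 1 library left out, and 0 were called lower in any setting. For attached protrusions, 172 genes and 3 members were called, with 10 to 211 genes and 1 to 5 members when 1 more library was left out. Cofactors called lower were 2 with DESeq2, 1 with limma-voom and 0 to 1 with a library left out. Regulators called higher were 0 to 4 with a library left out, and those called lower were 1 with DESeq2, 1 with limma-voom and 0 to 1 with a library left out. DESeq2 called 1 gene beside the clusters lower. Hoxa5 reversed to 0.98 with limma-voom, 0.06 without protrusion 1 and 2.33 without open neural tube 13, in a range of -0.48 to 2.33 with 1 library left out. Hoxb5 reversed to 0.00073 with relative log expression factors, 0.087 with no factor, 3.01 with limma-voom, 0.19 without protrusion 1, 0.10 without protrusion 2 and 3.61 without open neural tube 13, in a range of -0.38 to 3.61. Hoxd4 reversed to -0.09 without protrusion 2, -0.18 without protrusion 4 and -0.02 without open neural tube 9, in a range of -0.18 to 0.97. The cause was not tested. The settings for attached protrusions with a library left out, those for the separated protrusion and those for the lists were chosen after seeing the data. No paired analysis was possible because the groups share no replicate number. The floor of 3 reads, 0.180 to 0.529 CPM, was a chosen cutoff. Values above 0 but under it rest on 1 or 2 reads and are uncertain.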
